A study of Mus musculus with 2 samples.

Results

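Potassium channel genes were followed through the cell classes of the mouse dorsal root ganglion. The set was chosen by symbol alone: every gene whose symbol starts with Kcn, further letters and a digit, leaving out Kcnq1ot1, symbols ending in os and pseudogenes. This rule took 95 of the 31253 annotated features, and it includes pore-forming subunits, their auxiliary subunits and a pair of opposite-strand transcripts, Kcnmb4os1 and Kcnmb4os2. The data are 2 single-cell RNA-seq libraries, replicate 1 and replicate 2, of dissociated L4-5 ganglia from wild-type mice aged 8 weeks in an acetone-ether-water (AEW) group, studied as an itch state. Both libraries belong to this treated group, so every comparison below is between cell classes within the same libraries and none concerns the treatment. The labels do not say whether the replicates are separate animals. A p-value here is set against how far class differences vary between these libraries, pooled over the classes of a fit. A shift common to all classes is removed, and the spread that remains may be technical.

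Potassium channels let K+ leave or enter the cell and set the resting potential, the threshold and the shape and spacing of action potentials. In sensory neurons, Kv1 channels brake firing near axon initial segments and nodes, Kv4 channels carry fast A-type current, Kv7 channels carry the M-current, and two-pore channels carry background current. In glia, inward rectifiers such as Kir4.1 take up K+ released by active neurons, and in mural cells of small vessels ATP-sensitive channels built from Kir6.1 and the sulfonylurea receptor SUR2 link metabolism to membrane potential.

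Cells were assigned to classes by marker genes, none of which is a Kcn gene, and raw unique molecular identifiers (UMIs) were summed per class and library. A level below is the number of UMIs of a gene per 10000 UMIs of the class, given for replicate 1 and then replicate 2. The 8 neuron-like classes are called by their markers: NP1-like (Mrgprd), NP2-like (Mrgpra3), NP3-like (Nppb), TH-like (Th), PEP-C-like (Tac1, Adcyap1), PEP-A-like (Smr2, Bmpr1b, Nefh), TRPM8-like (Trpm8, Foxp2) and NF-like (Pvalb, Ntrk3, Nefh). Satellite glia-like, myelinating and non-myelinating Schwann-like, pericyte-like and vascular smooth muscle-like cells form the other types, and the ending "-like" is left out in what follows. Neuron is the labelled cell type of both libraries. Of 18044 cells kept, 1483 were gated as neurons and 4364 as satellite glia. Another 3686 passed the neuron markers but held under 10000 UMIs, a minimum set for neurons alone after seeing the data, and were left out. The 1483 neurons held a median of 106400 and 57874.5 UMIs a cell and satellite glia 8232 and 7257, and 24 cell barcodes occurred in both libraries. The TRPM8 class was the thinnest, with 35 and 17 cells, Trpm8 itself at 2.03 and 0.382 and the satellite glia gene Apoe at 29.9 and 16.8 against 932 and 913 in satellite glia. In the PEP-A class, of 32 and 33 cells, the marker Smr2 was at 0.228 and 0.502, Th at 0.506 and 1.56 and Tac1 at 1.24 and 5.93. Stricter gates kept 25 and 14 of these cells. Non-myelinating Schwann cells had only 463746 and 164508 UMIs in all, so a level there rests on few UMIs.

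Of the 95 genes, 62 reached 0.1 UMIs per 10000 in both libraries in at least 1 class, and 58 of these are described below. Another 29 were detected below that level: Kcna3, Kcna7, Kcna10, Kcnab3, Kcnd2, Kcne1, Kcne1l, Kcne2, Kcne3, Kcnf1, Kcng1, Kcng3, Kcng4, Kcnh3, Kcnh4, Kcnh5, Kcnh6, Kcnj2, Kcnj6, Kcnj13, Kcnj14, Kcnj15, Kcnk6, Kcnk7, Kcnk16, Kcnmb4os1, Kcnq1, Kcnu1 and Kcnv2. The remaining 4, Kcnj1, Kcnj5, Kcnk15 and Kcnmb3, had no UMI in the gated cells. All 95 identifiers were found in GENCODE mouse release M21, and 34 of the 62 genes above that level overlap another annotated gene, 31 of them on the opposite strand. How the counting used strand is not given in the sources used here, so reads of such a gene and its partner cannot be told apart from these counts alone.

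**Figure D1:**
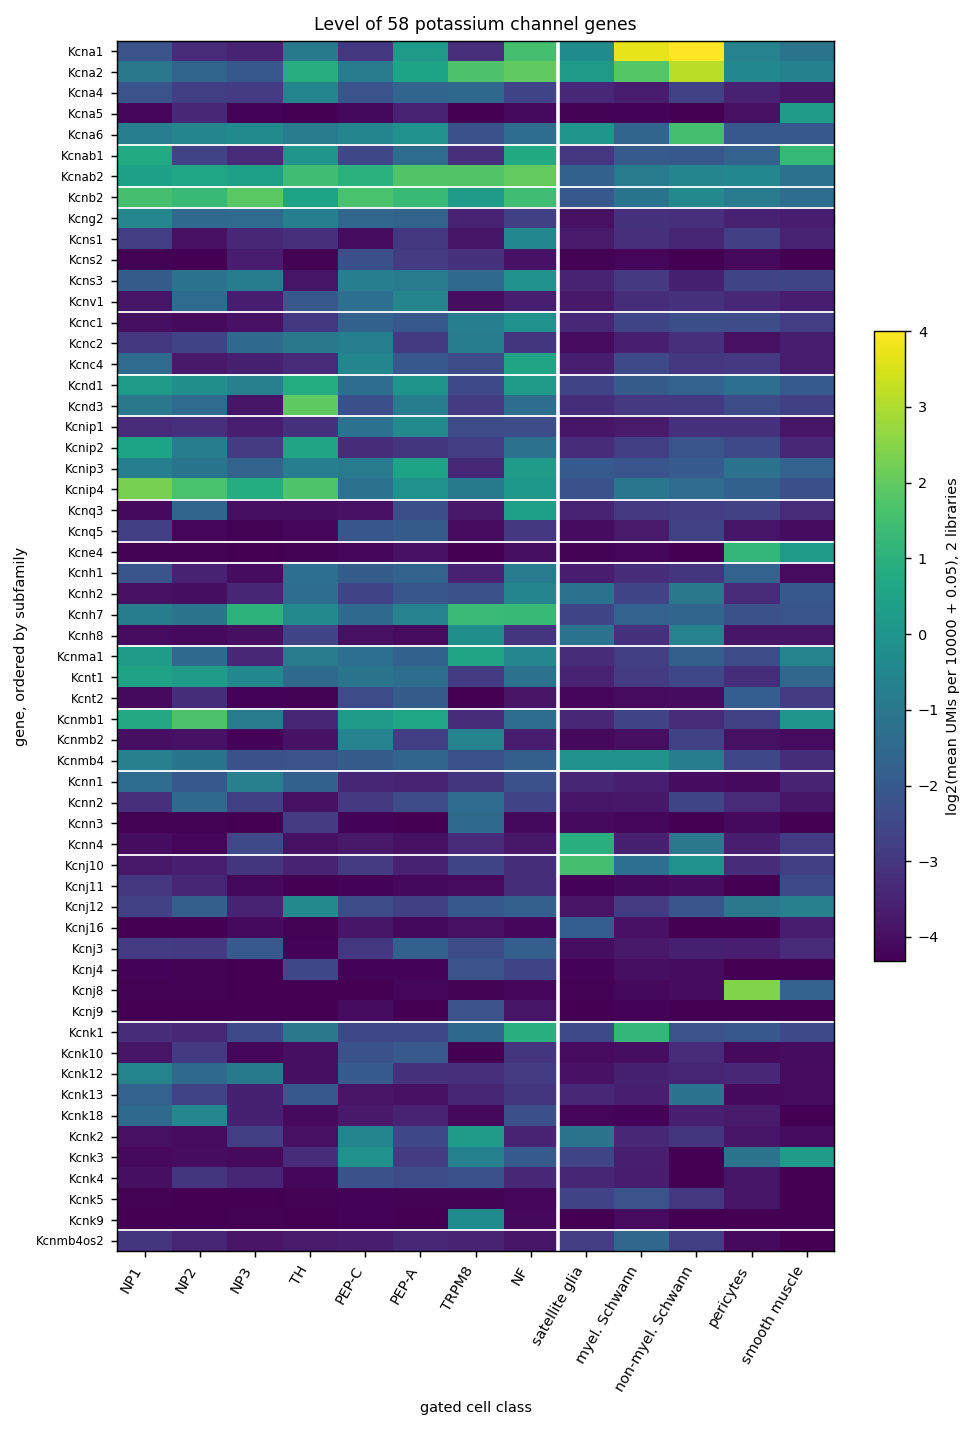
Mean level over the 2 libraries of the 58 described genes (rows, grouped by subfamily) in 8 neuron classes and 5 glial and mural types (columns, divided by a white line). The colour is log2(UMIs per 10000 + 0.05) and is read along a row. Kcna1 is brightest in both Schwann types, Kcnj8 in pericytes, and Kcnk9 stands out in the TRPM8 class alone.

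Upstream sequence is shown for 6 genes that separate cell types in these data and whose window lies outside the gene's own GENCODE span. They are Kcns1 (highest in NF neurons), the adjacent genes Kcnj9 (TRPM8 neurons) and Kcnj10 (satellite glia), Kcnn4 (satellite glia), Kcnj8 (pericytes) and Kcna5 (vascular smooth muscle). Each is the 250 bases before the RefSeq start on build GRCm38.p6, 5′ to 3′ on the gene's strand, with CG dinucleotides in capitals. For Kcna5 alone, the bases after this start were not found near the opening of a GENCODE transcript of the gene. The coordinates are chr2:164171114-164171363 (minus strand) for Kcns1, chr1:172329323-172329572 (minus strand) for Kcnj9, chr1:172340960-172341209 (plus strand) for Kcnj10, chr7:24370013-24370262 (plus strand) for Kcnn4, chr6:142571615-142571864 (minus strand) for Kcnj8 and chr6:126535556-126535805 (minus strand) for Kcna5.
Kcns1: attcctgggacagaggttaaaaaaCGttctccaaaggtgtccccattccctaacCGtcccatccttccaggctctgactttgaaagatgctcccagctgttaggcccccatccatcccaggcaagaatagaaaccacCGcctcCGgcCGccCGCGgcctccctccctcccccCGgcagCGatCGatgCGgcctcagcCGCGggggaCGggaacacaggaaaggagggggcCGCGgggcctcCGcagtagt
Kcnj9: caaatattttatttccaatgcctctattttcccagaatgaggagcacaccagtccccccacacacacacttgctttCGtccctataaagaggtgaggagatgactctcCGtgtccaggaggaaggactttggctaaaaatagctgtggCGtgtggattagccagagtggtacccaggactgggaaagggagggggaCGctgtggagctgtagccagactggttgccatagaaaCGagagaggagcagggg
Kcnj10: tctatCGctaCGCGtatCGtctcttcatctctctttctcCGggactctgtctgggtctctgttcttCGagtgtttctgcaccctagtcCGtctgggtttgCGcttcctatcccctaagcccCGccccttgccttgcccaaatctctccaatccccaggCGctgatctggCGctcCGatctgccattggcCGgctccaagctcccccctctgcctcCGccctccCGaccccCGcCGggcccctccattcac
Kcnn4: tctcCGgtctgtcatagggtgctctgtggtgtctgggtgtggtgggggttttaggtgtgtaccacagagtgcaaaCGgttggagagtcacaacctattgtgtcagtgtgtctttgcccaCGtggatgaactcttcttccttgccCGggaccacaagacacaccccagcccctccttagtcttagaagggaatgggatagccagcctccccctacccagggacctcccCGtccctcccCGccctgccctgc
Kcnj8: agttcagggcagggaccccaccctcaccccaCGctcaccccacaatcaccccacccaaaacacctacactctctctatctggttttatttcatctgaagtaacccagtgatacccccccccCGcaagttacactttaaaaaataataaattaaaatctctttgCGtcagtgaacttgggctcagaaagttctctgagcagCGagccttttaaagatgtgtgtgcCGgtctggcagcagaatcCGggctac
Kcna5: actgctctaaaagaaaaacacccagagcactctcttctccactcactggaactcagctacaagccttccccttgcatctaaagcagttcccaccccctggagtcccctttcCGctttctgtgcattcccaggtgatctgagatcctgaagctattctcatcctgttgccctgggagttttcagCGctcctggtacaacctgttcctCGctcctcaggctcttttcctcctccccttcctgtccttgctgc
The table of promoters held 69 of the 95 genes. These windows carried a median of 8 CG dinucleotides, beside 6 over 27025 genes. Kcns1 and Kcnj10 each held 17, and Kcna5, Kcnj9, Kcnj8 and Kcnn4 held 3, 5, 6 and 6. The neighbours Kcnj9 and Kcnj10, which lie 11.9 kb apart on chromosome 1 and point away from each other, differ in CG content. They also differ in the class where each was highest. A TATAAA motif on either strand was found in 2.90% of the 69 windows and in 13.0% of all windows, and of the 6 printed only Kcnj9 held it.

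Summed over the 95 genes without the opposite-strand transcripts Kcnmb4os1 and Kcnmb4os2, potassium channel RNA differed between classes. Among neurons the sum was highest in the NF class, at 39.9 and 36.8 UMIs per 10000, above every library of the other classes. It was lowest in the NP3 class, at 18.3 and 15.7, which overlapped with the PEP-C class at 20.9 and 17.9. In myelinating Schwann cells the sum was 25.0 and 25.2, of which Kv1 genes made up 17.2 and 16.3. In non-myelinating Schwann cells it was 43.2 and 30.7, with Kv1 genes at 34.0 and 21.8, so that 1 subfamily carried most of the Schwann total. Satellite glia summed to 12.6 and 12.7, of which inward rectifiers held 3.29 and 3.01, pericytes to 16.1 and 15.5, with 6.61 and 5.12 from inward rectifiers, and vascular smooth muscle to 15.3 and 14.4.

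**Figure D2:**
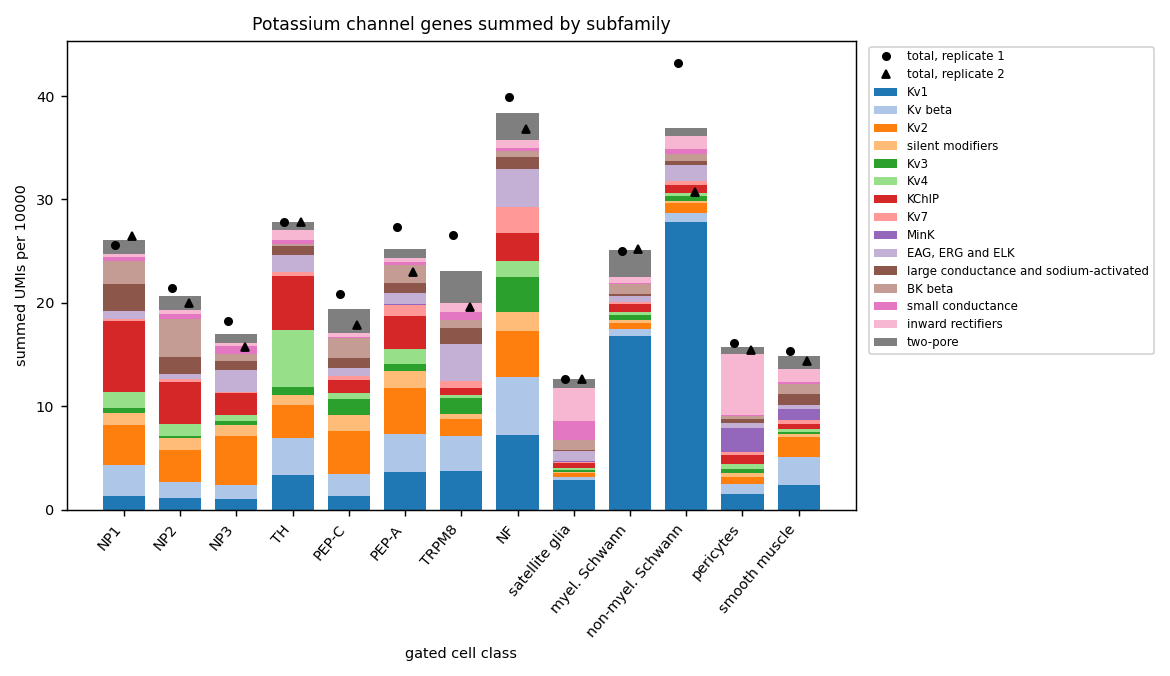
Summed UMIs per 10000 of the potassium channel genes in each class, stacked by subfamily as means of 2 libraries, with the total of each library as a point. The opposite-strand transcripts are left out. NF neurons and non-myelinating Schwann cells have the tallest bars, and Kv1 genes fill most of the bar in both Schwann types.

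Most of these genes had a preferred neuron class that both libraries shared. Of 54 that reached 0.1 UMIs per 10000 in a neuron class, 43 (79.6%) had the same highest class in both libraries, beside 58.7% of the 9739 genes at that level. In 35 of the 54 (64.8%), both libraries of the highest class lay above every library of the other classes, beside 42.0% of all genes at that level. The NF class was highest for 14 of the 43, TRPM8 for 7, NP1 for 6, TH for 5, PEP-A for 4, NP3 for 3, and NP2 and PEP-C for 2 each.

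Each neuron class was then tested against the mean of the other 7 on the log2 scale, so that a gene missing from several classes can stand out in a class where its level is moderate. Here 74 of the genes and 13092 genes in all passed the filter on low counts, and a call is an adjusted p under 0.05 in edgeR's quasi-likelihood test. In the NF class 36 of the 74 were higher and 8 lower, 59.5% of those tested, beside 40.4% of all genes called, 23.7% higher and 16.7% lower. The PEP-A class had 33 higher and 9 lower, 56.8% beside 29.4% of all genes, and the TH class 29 higher and 19 lower, 64.9% beside 36.6%. Counts of higher and lower genes were 26 and 20 in NP1 (40.9% of all genes called), 24 and 23 in NP2 (27.6%), 23 and 19 in PEP-C (28.4%) and 26 and 21 in TRPM8 (29.1%). In NP3 the balance was on the other side, with 14 higher and 26 lower (34.9% of all genes called, 18.1% higher and 16.8% lower). The median log2 difference of the 74 was highest in NF at 0.79 and PEP-A at 0.59 and lowest in NP3 at -0.88, and the medians over all genes lay between -0.0039 and 0.0222 in these 8 comparisons. A gene that is strong in 1 class passes the filter on the strength of that class, so these counts describe the genes that passed and not all 95.

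Named by the largest called differences that both libraries shared, the sets differed between classes but overlapped. Kcnk18, Kcnip2, Kcnk12, Kcnv1, Kcnt2, Kcnj4 and Kcnq3 were each named higher in more than a single class. NP1 neurons were higher in Kcnab1, Kcnk18, Kcnip2, Kcnk12 and Kcnk13, and NP2 neurons in Kcnk18, Kcnmb1, Kcnq3, Kcnv1 and Kcnn2. NP3 neurons were higher in Kcnn4, Kcnn1, Kcnk12, Kcnh7 and Kcnj3, and TH neurons in Kcnj4, Kcnd3, Kcnip2, Kcnj12 and Kcnh2. The peptidergic classes were higher in Kcnmb2, Kcns2, Kcnk3, Kcnt2 and Kcnk2 (PEP-C) and in Kcnt2, Kcnq5, Kcnk10, Kcnv1 and Kcnip1 (PEP-A). TRPM8 neurons were higher in Kcnk9, Kcnj9, Kcnn3, Kcnh8 and Kcnj4, and NF neurons in Kcnq3, Kcna1, Kcns1 and Kcnk1. On the lower side, NP1 neurons were led by Kcnk3, Kcnq3, Kcnh2, Kcnc1 and Kcnk2, NP2 neurons by Kcnc1, Kcnh2, Kcnk3, Kcnk2 and Kcnc4, and NP3 neurons by Kcnd3, Kcnh1, Kcnmb2, Kcnma1 and Kcnk3. TH neurons were lower in Kcnj3, Kcns3, Kcnmb1, Kcnk12 and Kcnn2, PEP-C neurons in Kcns1, Kcnip2, Kcnip4, Kcnk13 and Kcnn1, PEP-A neurons in Kcnn1, Kcnip2, Kcnk13, Kcnc2 and Kcnk12, and TRPM8 neurons in Kcnip3, Kcnmb1, Kcnv1, Kcnk18 and Kcnd1. NF neurons were lower in Kcnv1, Kcnc2, Kcng2, Kcna4 and Kcnmb1. These are described by subfamily in what follows.

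The size of many of these differences depended on the library. Of the 143 differences named over all comparisons, 61 had a library that lay more than 1.5-fold from the fitted value, 9 of them among the 10 of the TRPM8 class, while the shared sign is fixed by how the genes were named. Values by library are log2 differences with a prior of 1 UMI, replicate 1 first, so where a side held few UMIs they depend on that prior. The 5 genes that led the lower side in NF neurons were all nearer 0 in replicate 2, at -3.44 and -0.65 for Kcnv1, -2.61 and -1.18 for Kcnc2, -2.77 and -0.36 for Kcng2, -1.64 and -0.30 for Kcna4 and -2.02 and -0.13 for Kcnmb1. Kcnk3, a lower gene of all 3 NP classes, stood at -4.57 and -1.97 in NP1, -3.96 and -1.87 in NP2 and -2.18 and -6.03 in NP3 neurons. Kcnq3 in NP1 was at -3.11 and -1.90, and the values in NP3 were -4.51 and -3.21 for Kcnh1 and -2.18 and -5.82 for Kcnmb2. TH neurons had 3.89 and 3.71 for Kcnj4 and -5.19 and -4.44 for Kcnj3. PEP-C neurons had 5.05 and 3.79 for Kcnmb2, 3.96 and 3.41 for Kcns2, 3.08 and 3.97 for Kcnt2, -4.21 and -1.66 for Kcnip2 and -2.48 and -1.47 for Kcnk13, and PEP-A neurons 4.78 and 3.70 for Kcnt2, 3.97 and 2.88 for Kcnq5, 3.38 and 3.09 for Kcnk10, 3.12 and 3.87 for Kcnv1 and -1.22 and -3.61 for Kcnk13. In TRPM8 neurons the higher genes were at 8.28 and 7.82 for Kcnk9, 5.80 and 5.16 for Kcnj9, 6.71 and 4.78 for Kcnn3 and 4.33 and 4.04 for Kcnj4. The lower genes there were all nearer 0 in replicate 1, at -3.52 and -4.37 for Kcnip3, -2.77 and -4.56 for Kcnmb1, -2.18 and -6.36 for Kcnv1, -2.08 and -5.79 for Kcnk18 and -2.50 and -3.42 for Kcnd1.

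**Figure D3:**
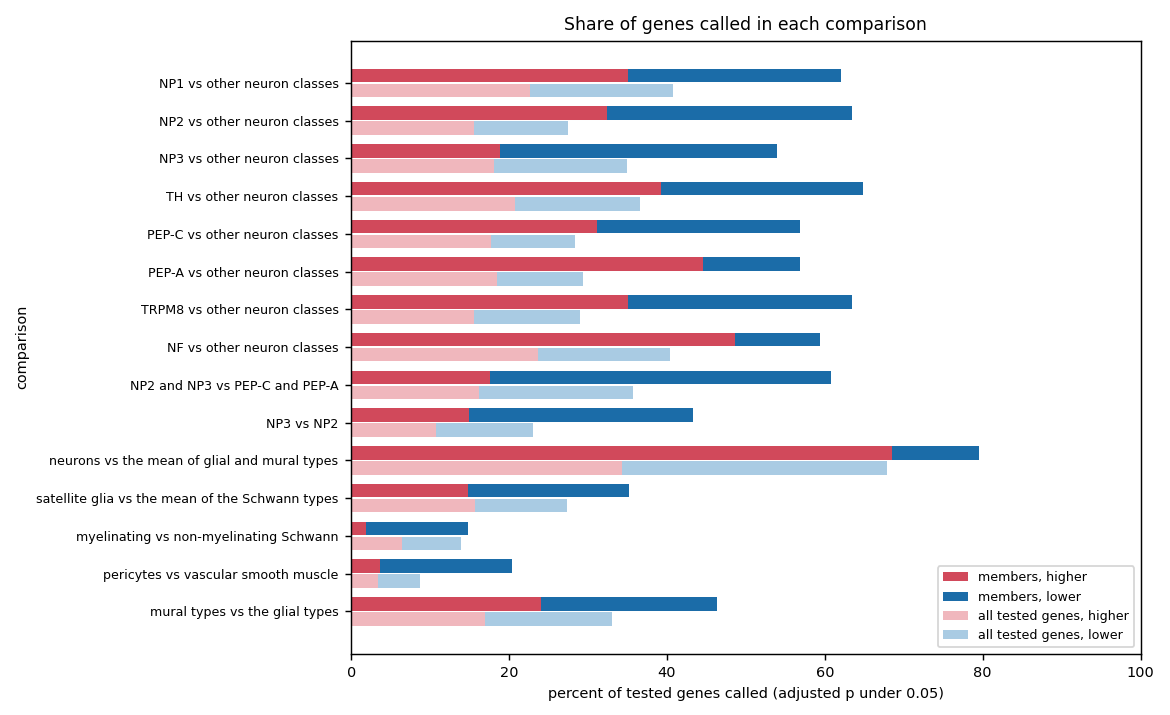
Percent of the tested potassium channel genes called higher or lower at an adjusted p under 0.05 (upper, dark bars) and of all tested genes (lower, pale bars) in the 15 comparisons between cell classes. The higher part of the dark bar is longest in the comparison of neurons with glial and mural types, at 68.5%, and among neuron classes in NF, at 48.6%.

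Kv1 genes encode the low-threshold delayed rectifiers. Kcna1 (Kv1.1) stood at 3.76 and 2.03 in NF neurons and 1.24 and 0.935 in PEP-A neurons, and at most 0.448 and 0.478 in the remaining classes, where the TH class was highest. Its log2 difference in NF neurons was 4.32 (SE 0.15, adjusted p = 4.52e-12), with both NF libraries above all others. Kcna1 is also a gene of Schwann cells, whose 6 myelin markers summed to 0.957 and 1.21 in NF neurons, within the range of the other neuron classes (0.391 to 3.58), against 689 and 547 in myelinating Schwann cells. The 5 markers of non-myelinating Schwann cells, where Kcna1 was at 19.6 and 12.4, summed to 8.08 and 7.99 in NF neurons against 52.6 and 39.8 in that type, and to 1.64 to 10.6 in the other neuron classes. The part of Schwann RNA in the Kcna1 level of NF neurons was not tested. Kcna2 (Kv1.2) was highest in NF neurons at 3.80 and 4.01 and next in TRPM8 neurons at 3.17 and 3.18, and was lowest in NP3 neurons at 0.207 and 0.185. Kcna4, the Kv1 subunit that inactivates fast by its own N terminus, was highest in TH neurons at 0.577 and 0.666, a log2 difference of 1.96 (SE 0.18, adjusted p = 2.93e-07). Kcna6 was broad, between 0.142 and 0.191 in TRPM8 and 1.12 and 0.617 in PEP-A neurons, and the highest class differed between the libraries. Kcna5 stayed under 0.1 in every neuron class and is described with smooth muscle.

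The Kv beta subunits bind Kv1 channels in the cytoplasm. Kcnab1 split the neurons: it read 1.66 and 1.67 in NP1, 1.48 and 1.77 in NF and 0.953 and 0.981 in TH neurons, against 0.0371 and 0.189 in NP2 and 0.0152 and 0.0876 in NP3 neurons. NP1 and NF overlapped, so no single class led. Kcnab2 was present in every class, from 1.36 and 1.11 in NP3 to 4.06 and 3.82 in NF neurons.

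Kv2 genes carry the main delayed rectifier of cell bodies. Kcnb2 was broad and ranged from 1.30 and 0.903 in TRPM8 to 3.80 and 3.49 in NP3 neurons. Silent subunits, which form no channel alone and modify Kv2, each had a different profile. Kcns1 (Kv9.1) was at 0.849 and 0.517 in NF neurons and nowhere above 0.11 in another neuron class, a log2 difference of 4.21 (SE 0.21, adjusted p = 2.73e-10). Kcns3 was likewise highest in NF at 0.727 and 1.02 but was lowest in TH neurons at 0.0190 and 0.0206, where the log2 difference was -4.49 (SE 0.21, adjusted p = 1.77e-10). Kcnv1 (Kv8.1) was highest in PEP-A at 0.515 and 0.765 and at 0.06 or less in NP1, NP3, TRPM8 and NF neurons. Kcng2 was highest in NP1 at 0.701 and 0.636 and TH at 0.606 and 0.514. Kcns2 was weak, highest in PEP-C at 0.175 and 0.131, and had no UMI in NP2 neurons.

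Kv3 channels open at depolarised potentials and close fast, which suits rapid firing. In both libraries NF neurons were highest for Kcnc1, at 1.20 and 0.573, and for Kcnc4, at 1.34 and 1.44. Their log2 differences in NF neurons were 3.70 (SE 0.18, adjusted p = 1.65e-10) for Kcnc1 and 3.55 (SE 0.21, adjusted p = 1.99e-09) for Kcnc4. The TRPM8 class came close for Kcnc1, at 0.516 and 0.560. Kcnc2 went the other way, at 0.0346 and 0.110 in NF neurons, where it was lower by the test (adjusted p = 0.000243), and at 0.676 and 0.356 in TRPM8 and 0.574 and 0.527 in PEP-C neurons. Kcnc1 read only 0.0201 and 0.00753 in NP1 neurons and 0.0111 and 0.00421 in NP2 neurons.

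Kv4 channels and their Ca2+-binding partners, the KChIPs, carry subthreshold A-type current. Kcnd3 (Kv4.3) marked TH neurons at 3.91 and 3.71, while the other classes reached at most 0.683 in either library, and it was lowest in NP3 neurons at 0.0183 and 0.0195. The log2 difference was 4.32 (SE 0.16, adjusted p = 1.4e-11) in TH and -4.48 (SE 0.44, adjusted p = 8.52e-07) in NP3 neurons. Kcnd1 also peaked in TH neurons, at 1.76 and 1.62, but was present in all classes, lowest in TRPM8 at 0.183 and 0.0763. Kcnd3 overlaps the opposite-strand transcript Kcnd3os.

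The KChIP genes divided the neurons between them. Kcnip4 was highest in NP1 neurons at 4.32 and 5.42, a log2 difference of 2.26 (SE 0.20, adjusted p = 2.04e-07), and low in PEP-C neurons at 0.266 and 0.489. Kcnip2 was shared by TH at 1.52 and 1.29 and NP1 at 1.45 and 1.28, whose libraries overlapped, and read 0.0155 and 0.0934 in PEP-C neurons. PEP-A neurons led for the other 2 genes: Kcnip1 was at 0.719 and 0.774, a log2 difference of 3.10 (SE 0.14, adjusted p = 1.27e-10), and Kcnip3 at 1.60 and 1.17, a difference of 1.96 (SE 0.12, adjusted p = 3.04e-09). Kcnip3 was lowest in TRPM8 neurons at 0.0639 and 0.0255. TH neurons thus held the highest Kv4 levels together with Kcnip2 and Kcnip4, the latter at 3.00 and 3.45.

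Kv7 channels carry the M-current that limits repetitive firing. Kcnq3 was highest in NF neurons in both libraries and split the classes sharply, at 1.36 and 1.19 in NF, 0.360 and 0.198 in NP2 and 0.223 and 0.0737 in PEP-A neurons, and 0.04 or less in the remaining classes. The log2 difference of Kcnq3 was 5.26 (SE 0.25, adjusted p = 1.57e-10) in NF and 2.97 (SE 0.34, adjusted p = 7.21e-06) in NP2 neurons. Kcnq5 was highest in PEP-A at 0.309 and 0.134 and PEP-C at 0.190 and 0.178, in no common order between the libraries.

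Among the EAG, ERG and ELK genes, Kcnh7 (ERG3) was high in TRPM8 at 2.79 and 2.27, NF at 2.64 and 2.10 and NP3 neurons at 2.42 and 1.63, and low in PEP-C neurons at 0.324 and 0.294. Kcnh2 (ERG1) was highest in NF at 0.775 and 0.517 and next in TH at 0.384 and 0.320, with a log2 difference of 3.12 (SE 0.12, adjusted p = 1.55e-11) in NF neurons. Kcnh1 (EAG1) followed the same order, at 0.511 and 0.444 in NF and 0.347 and 0.370 in TH neurons, and read 0.00610 and 0.0146 in NP3 neurons. Kcnh8 (ELK1) was found mainly in TRPM8 neurons, at 0.918 and 0.763, with TH next at 0.0952 and 0.135. Outside neurons it stood at 0.841 and 0.365 in non-myelinating Schwann cells, where replicate 1 was close to the TRPM8 level, and at 0.449 and 0.350 in satellite glia.

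Large-conductance channels open with Ca2+ (Kcnma1, the BK channel) or Na+ (Kcnt1 and Kcnt2, Slack and Slick). Kcnma1 read 1.20 and 1.13 in NP1 and 2.15 and 0.636 in TRPM8 neurons, where the libraries differed more than 3-fold, and these classes led in replicate 2 and replicate 1. It was lowest in NP3 neurons at 0.0396 and 0.0487. Kcnt1 was highest in NP1 at 1.58 and 1.14 and NP2 at 1.40 and 0.963, and lowest in TRPM8 at 0.146 and 0.0255. Kcnt2 was weaker, at 0.321 and 0.129 in PEP-A, 0.130 and 0.156 in PEP-C and 0.08 or less in other neurons, with no UMI in TRPM8 neurons.

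The BK beta subunits change gating and Ca2+ sensitivity of Kcnma1 channels. Kcnmb1 was highest in NP2 neurons at 2.54 and 3.81, a log2 difference of 3.23 (SE 0.24, adjusted p = 8.52e-08), and lowest in TH at 0.0293 and 0.0554 and TRPM8 neurons at 0.0685 and 0.0382. It varied between libraries in NF neurons, at 0.0974 and 0.607, and in PEP-A neurons, at 0.609 and 2.31, and its call in NF neurons, at a log2 difference of -0.90 (SE 0.34, adjusted p = 0.0472) and of -2.02 and -0.13 by library, is lost in 4 of the alternatives given at the end. Kcnmb1 lies inside Kcnip1 on the opposite strand of chromosome 11, and the 2 genes differed in profile: Kcnip1 read 0.0575 and 0.0589 where Kcnmb1 was highest. Kcnmb2, an inactivating subunit, was at 0.649 and 0.540 in PEP-C and 0.516 and 0.700 in TRPM8 neurons and at 0.03 or less in NP1, NP2, NP3 and TH neurons. Kcnmb4 was highest in NP1 at 0.511 and 0.635, and its opposite-strand transcript Kcnmb4os2 reached 0.1 in no neuron class.

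Small and intermediate conductance channels open with Ca2+ alone and shape afterhyperpolarisation. Kcnn1 (SK1) was highest in NP3 at 0.644 and 0.482 and next in NP1 at 0.361 and 0.323, with 0.0396 and 0.0478 in PEP-C and 0.0408 and 0.0369 in PEP-A neurons. Kcnn4 (the intermediate conductance channel) was also highest among neurons in NP3, at 0.146 and 0.112, with log2 differences in NP3 of 2.92 (SE 0.29, adjusted p = 8.86e-07) for Kcnn4 and 2.20 (SE 0.15, adjusted p = 1.57e-08) for Kcnn1. Satellite glia held Kcnn4 at 1.75 and 1.91, and the 5 satellite markers summed to 21.0 and 11.3 in NP3 neurons against 1111 and 1088 in satellite glia. Their part in the Kcnn4 level of NP3 neurons was not tested. Kcnn2 (SK2) was highest in NP2 in replicate 1 and in TRPM8 in replicate 2, at 0.411 and 0.219 in NP2 and 0.343 and 0.305 in TRPM8 neurons. Kcnn3 (SK3) was found in TRPM8 neurons at 0.470 and 0.165 and TH neurons at 0.104 and 0.0696, and at 0.02 or less in other neuron classes.

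Inward rectifiers were sparse in neurons. Kcnj12 (Kir2.2) was highest in TH neurons at 0.698 and 0.722, a log2 difference of 2.43 (SE 0.12, adjusted p = 2.47e-10). Kcnj3 (Kir3.1), a subunit of the G protein-gated channels through which opioid and other receptors act, was present at low level in every class but TH, where 5 UMIs gave 0.00293 and 0.00387, a log2 difference of -5.28 (SE 0.31, adjusted p = 1.72e-09) and of -5.19 and -4.44 by library. Kcnj9 (Kir3.3), another subunit of these channels, was found in TRPM8 neurons at 0.219 and 0.115, with 57 UMIs there against 44 in the 7 other classes together (adjusted p = 4.16e-07). Kcnj4 (Kir2.3) was limited to TRPM8, TH and NF neurons, at 0.169 and 0.165 in TRPM8, 0.116 and 0.132 in TH and 0.0888 and 0.140 in NF neurons. Kcnj11 (Kir6.2) stayed under 0.1 in neurons, highest in NP1 at 0.0830 and 0.0649, and had no UMI in TH neurons, at least 18.8-fold lower than in the other classes pooled if 3 UMIs are taken as the floor of the class.

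Two-pore genes differed in how far they were restricted to a class. Kcnk9 (TASK3) was found in TRPM8 neurons at 0.991 and 0.573 and at 0.01 or less elsewhere: 262 UMIs in 52 cells against 15 in the 7 other classes together (adjusted p = 2.68e-10). Kcnk18 (TRESK) was highest in NP2 at 0.565 and 0.786, next in NP1 at 0.283 and 0.344 and NF at 0.180 and 0.132, and 0.06 or less in other neurons. Its log2 difference was 4.23 (SE 0.19, adjusted p = 5.87e-10) in NP2 and 3.07 (SE 0.19, adjusted p = 6.33e-09) in NP1 neurons. Kcnk3 (TASK1) was highest in PEP-C at 0.972 and 0.841 and next in TRPM8 at 0.589 and 0.573, a log2 difference of 4.31 (SE 0.22, adjusted p = 1.09e-09) in PEP-C neurons. The mechanosensitive Kcnk2 (TREK1) had the same pair in the other order, at 1.31 and 1.00 in TRPM8 and 0.797 and 0.470 in PEP-C neurons.

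Kcnk1 (TWIK1) marked NF neurons at 2.05 and 1.78, with TH next at 0.417 and 0.467 and a log2 difference of 3.80 (SE 0.12, adjusted p = 1.34e-12) in NF. Kcnk12 and Kcnk13, the THIK channels, were both highest in NP1, at 0.676 and 0.581 for Kcnk12 and 0.245 and 0.276 for Kcnk13. They parted in TH neurons, where Kcnk12 read 0.00878 and 0.0180 and Kcnk13 0.211 and 0.178. Kcnk10 (TREK2) was highest in PEP-A at 0.233 and 0.171 and PEP-C at 0.175 and 0.151, with no UMI in TRPM8 neurons. Kcnk4 (TRAAK) stood at 0.158 and 0.158 in PEP-C, 0.134 and 0.152 in PEP-A and 0.0868 and 0.242 in TRPM8 neurons, which overlapped, and Kcnk5 (TASK2) at 0.01 or less in every neuron class.

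**Figure D4:**
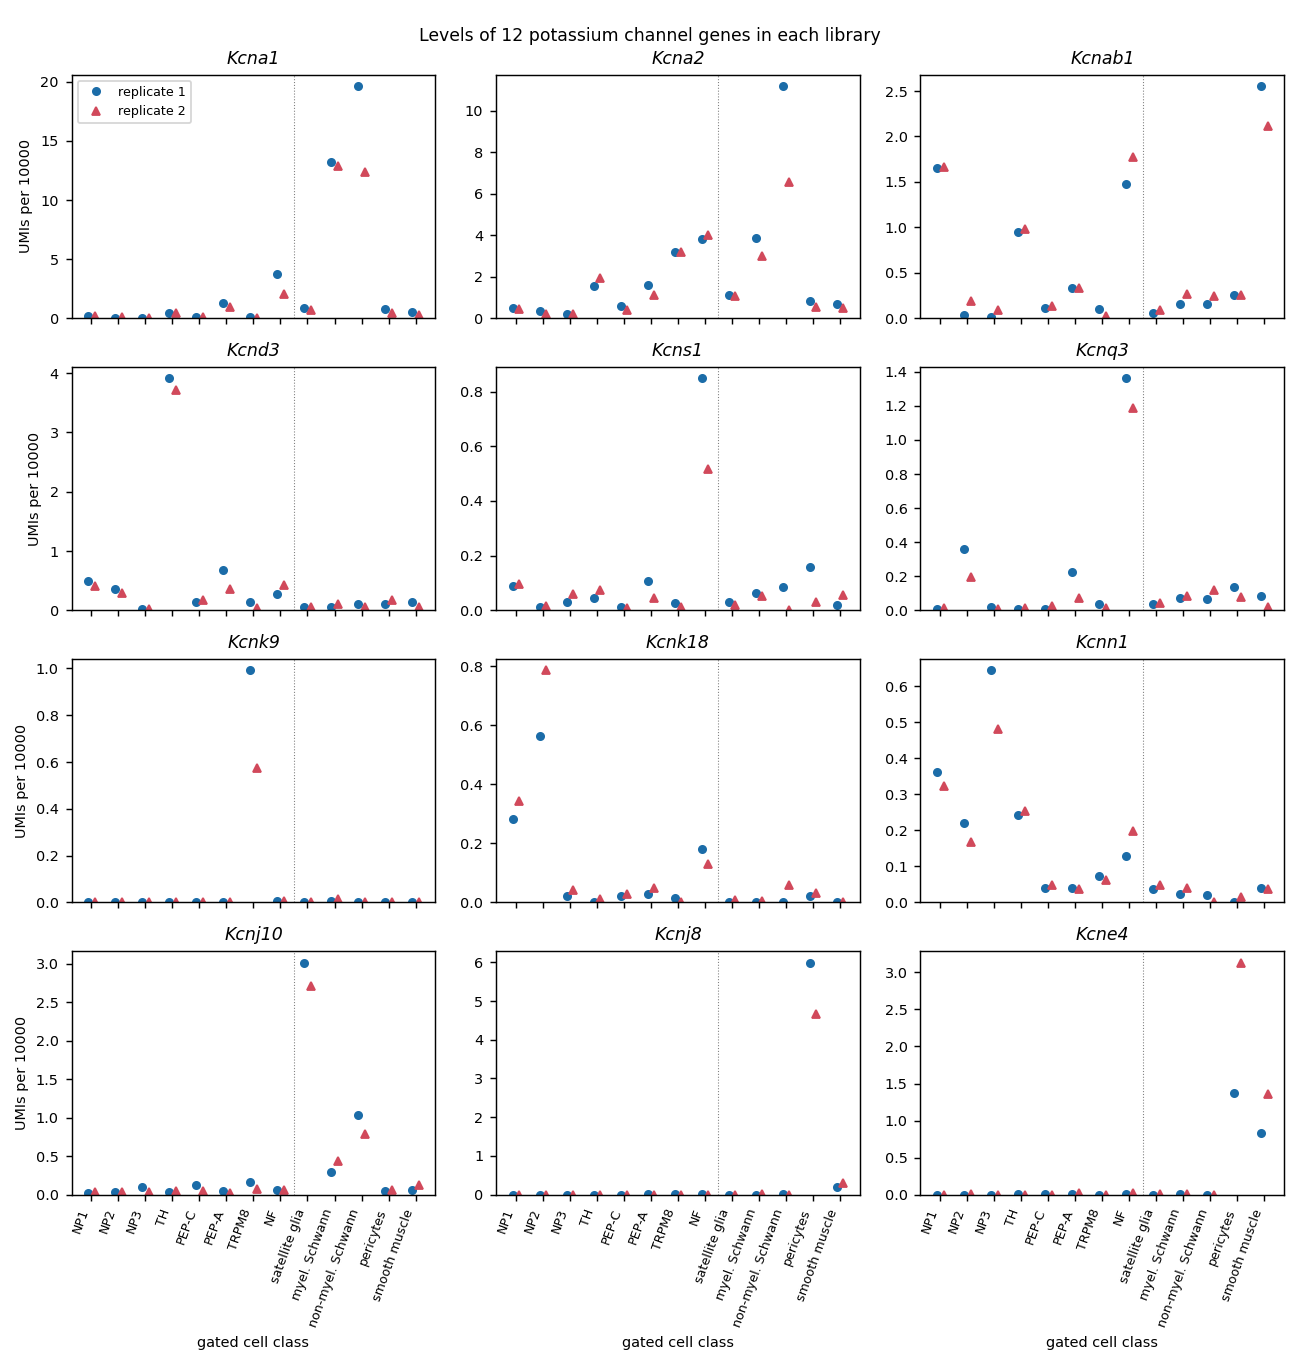
UMIs per 10000 of 12 genes in each library (circles, replicate 1, and triangles, replicate 2) across the 8 neuron classes and, right of the dotted line, the glial and mural types. Each panel has its own linear axis from 0. Kcnd3 stands out in TH neurons, Kcnk9 in TRPM8 neurons, Kcns1 and Kcnq3 in NF neurons, Kcnj10 in satellite glia and Kcnj8 in pericytes, in both libraries.

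The NP2 and NP3 classes are known for itch receptors, and they were compared with the peptidergic PEP-C and PEP-A classes and with each other. Against PEP-C and PEP-A, 13 of the 74 genes were higher in NP2 and NP3 and 32 lower, 60.8% beside 35.7% of all genes called (16.2% higher, 19.5% lower), with a median of -0.42 beside -0.0072 over all genes. Kcnn1 was higher by 3.04 (SE 0.18, adjusted p = 5.17e-09), Kcnk18 by 2.27 (SE 0.36, adjusted p = 0.000107) and Kcnip4 by 2.00 (SE 0.23, adjusted p = 5.17e-06) on the log2 scale. Against the mean of the other neuron classes, Kcnn1 was called higher in both NP2 and NP3, but Kcnk18 and Kcnip4 in NP2 and not in NP3. Kcnk3 was lower at -4.97 (SE 0.50, adjusted p = 1.01e-06), with -4.79 and -5.76 by library, Kcnmb2 at -5.06 (SE 0.58, adjusted p = 4.04e-06) and Kcnc1 at -4.21 (SE 0.34, adjusted p = 9.95e-08). The lower values rest on 11, 10 and 16 UMIs of these genes in NP2 and NP3 together, in that order.

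Between NP3 and NP2, 11 genes were higher in NP3 and 21 lower, 43.2% beside 23.1% of all genes called, with a median of -0.59 beside -0.0009. On the log2 scale Kcnh7 was higher in NP3 by 2.14 (SE 0.19, adjusted p = 7.18e-07), Kcnn1 by 1.36 (SE 0.21, adjusted p = 0.000194) and Kcnn4 by 4.51 (SE 0.56, adjusted p = 2.39e-05), the last on 4 UMIs in NP2. Kcnk18 differed by -4.58 (SE 0.36, adjusted p = 2.51e-07), Kcnd3 by -4.27 (SE 0.50, adjusted p = 1.33e-05), Kcnma1 by -3.04 (SE 0.44, adjusted p = 0.00011) and Kcnmb1 by -2.69 (SE 0.40, adjusted p = 0.00012), all lower in NP3. The BK channel gene and its beta subunit were thus both lower in NP3, with 23 UMIs of Kcnma1 and 274 of Kcnmb1 there.

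Neurons as a whole were then set against the mean of the 5 glial and mural types, with 54 of the potassium channel genes and 11190 genes in all tested. Here 37 of the 54 were higher in neurons and 6 lower, 79.6% beside 67.9% of all genes called (34.3% higher, 33.6% lower), and the median was 1.97 beside -0.0265 over all genes. Kcnk18 was higher by 5.64 (SE 0.56, adjusted p = 8.41e-07), but by 6.47 and 4.01 in replicates 1 and 2. Kcnip4 was higher by 3.34 (SE 0.19, adjusted p = 1.59e-09), with 3.95 and 2.74 by library, and Kcnb2 by 2.59 (SE 0.12, adjusted p = 2.27e-10). The lower genes included Kcna1, Kcna2, Kcnj8, Kcnj10 and Kcnn4, with a log2 difference of -2.89 (SE 0.29, adjusted p = 4.86e-07) for Kcnj10, -2.33 (SE 0.17, adjusted p = 2e-08) for Kcna1 and -0.76 (SE 0.16, adjusted p = 0.000724) for Kcna2. Kcnj8 had 17 UMIs in neurons.

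RNA of neurons was also counted in the other types. The 7 pan-neuronal marker genes of the gate stood in satellite glia at 1.99% to 20.2% of their neuronal level in replicate 1 and 4.94% to 13.9% in replicate 2. In pericytes, the type where the highest marker stood highest in both libraries, they ranged from 3.07% to 61.1% and from 9.80% to 34.7%. A channel gene was counted as above this range in a type where its level was at least 0.1 and its percent of the neuronal level exceeded that of every one of these markers in both libraries. This left 14 of 19 genes at 0.1 in satellite glia (73.7%, beside 95.5% of all genes at 0.1 there), 9 of 18 in myelinating (beside 85.4%) and 11 of 21 in non-myelinating Schwann cells (52.4% beside 81.3%). It left 11 of 21 in pericytes (52.4% beside 77.5%) and 16 of 22 in vascular smooth muscle (72.7% beside 89.9%), so the share was below that of all genes in each type. Above the neuronal level itself in both libraries were 9 genes in satellite glia (47.4% beside 46.3% of all genes), 7 in myelinating (38.9% beside 45.4%) and 9 in non-myelinating Schwann cells (42.9% beside 45.5%), 8 in pericytes (38.1% beside 46.7%) and 10 in smooth muscle (45.5% beside 43.7%), shares near the background.

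**Figure D5:**
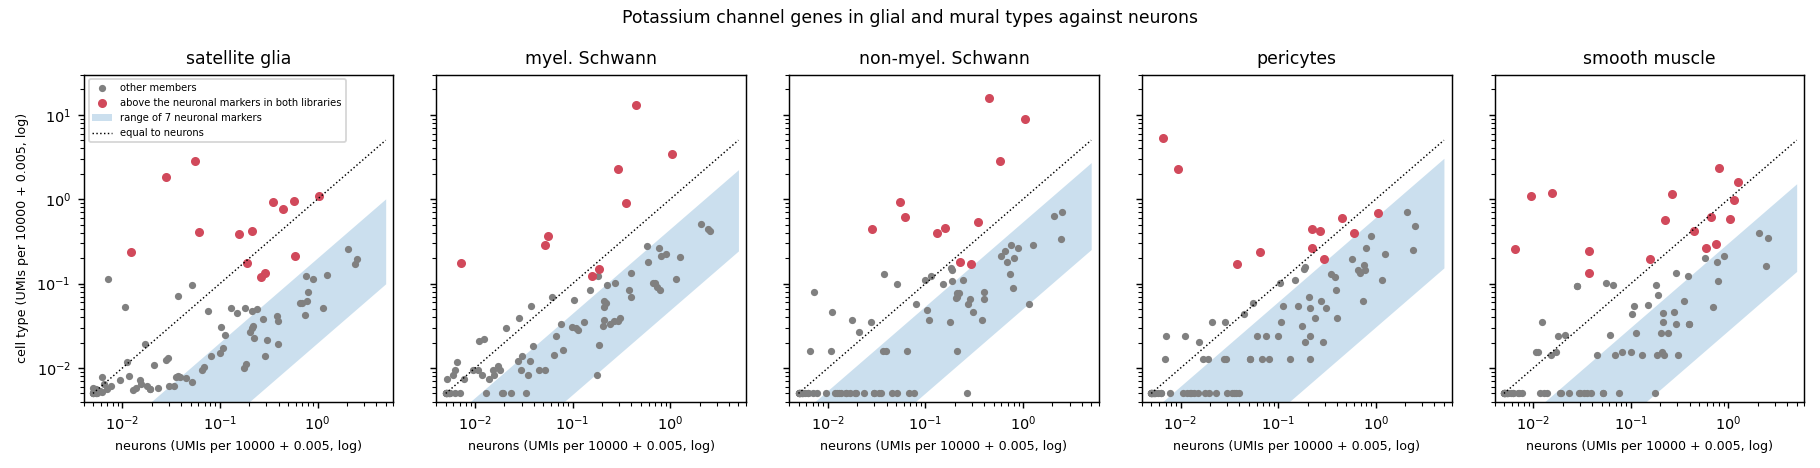
Level of each potassium channel gene in 5 glial and mural types (vertical) against neurons (horizontal), as UMIs per 10000 plus 0.005, means of 2 libraries, on log axes. The blue band is the range of the 7 neuronal markers as a share of their neuronal level. Red points lie above it in both libraries, and those above the dotted line exceed the neuronal level, with Kcna1 at the top in both Schwann types and Kcnj8 in pericytes.

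Satellite glia envelop the neuronal cell body and buffer its K+. Kcnj10 (Kir4.1) was at 3.02 and 2.71 there, against 0.293 and 0.435 in myelinating and 1.03 and 0.790 in non-myelinating Schwann cells and 0.0581 and 0.0427 in neurons. Kcnj16 (Kir5.1), which pairs with it, was at 0.231 and 0.235, with 828 UMIs against 7 in both Schwann types (adjusted p = 1.62e-05). These counts come from unlike totals. Satellite glia held 19252330 and 16269675 UMIs in all, myelinating Schwann cells 4265691 and 1494948 and non-myelinating cells 463746 and 164508. Kcnn4 stood at 1.75 and 1.91 in satellite glia, a log2 difference from Schwann cells of 4.26 (SE 0.21, adjusted p = 1.25e-08), and Kcnj10 differed by 2.58 (SE 0.18, adjusted p = 1.56e-07). Also above the neuronal level were Kcna6 at 0.928 and 0.982, Kcnmb4 at 0.827 and 0.993, Kcnk2 at 0.523 and 0.307, Kcnh8 at 0.449 and 0.350, Kcnh2 at 0.353 and 0.411 and Kcna1, given with the Schwann cells. Against the mean of the Schwann types, 8 of the 54 genes were higher in satellite glia and 11 lower, 35.2% beside 27.3% of all genes called (15.7% higher, 11.6% lower), with a median of -0.72 beside 0.039.

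Schwann cells of both types carried Kcna1 at levels above every neuron class. Kcna1 was at 13.2 and 12.8 in myelinating and 19.6 and 12.4 in non-myelinating Schwann cells, and at 0.862 and 0.672 in satellite glia, a log2 difference of -3.97 (SE 0.19, adjusted p = 1.25e-08) for satellite glia. Kcna2 was at 3.87 and 3.00 in myelinating cells, beside 3.80 and 4.01 in NF neurons, and at 11.2 and 6.57 in non-myelinating cells, above every neuron class. Between the Schwann types, 1 of 54 genes was higher in myelinating cells and 7 lower, 14.8%, close to the 13.9% of all genes called (6.45% higher, 7.44% lower), and the median was -0.34 beside 0.0191. The higher gene was Kcnk1, at 2.54 and 1.97 against 0.151 and 0.182, a log2 difference of 3.99 (SE 0.35, adjusted p = 2.05e-06). The lower genes included Kcna6, at 0.166 and 0.388 in myelinating against 3.04 and 2.67 in non-myelinating cells, a log2 difference of -3.39 (SE 0.30, adjusted p = 1.83e-06), with -4.00 and -2.66 by library, and Kcna2, with a difference of -1.21 (SE 0.20, adjusted p = 0.000681). Kcnk13, at 0.367 and 0.425 against 0.0141 and 0.0468, and Kcnn4, at 0.453 and 0.425 against 0.0211 and 0.0468, were also lower in myelinating cells, on 24 and 28 UMIs in the non-myelinating type. The satellite gene Apoe read 143 and 116 in non-myelinating and 10.9 and 36.6 in myelinating cells, and its part in Kcnn4 and Kcnj10 there was not tested. Kcna1 did not pass the test between the Schwann types, at a log2 difference of -0.11 (SE 0.18, adjusted p = 0.802). Kcnmb4os2 reached 0.251 and 0.314 in myelinating cells, beside 0.926 and 0.856 for Kcnmb4 on the opposite strand. Kcnk5 (TASK2), at 0.01 or less in every neuron class, read 0.171 and 0.167 in myelinating cells and 0.0826 and 0.134 in satellite glia.

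Pericytes and vascular smooth muscle were the only classes with Kcnj8 (Kir6.1) above 0.1: 5.99 and 4.66 in pericytes and 0.208 and 0.301 in smooth muscle, a log2 difference of 4.15 (SE 0.32, adjusted p = 1.67e-06). Abcc9, which encodes its partner SUR2 and lies 16.2 kb from Kcnj8 on chromosome 6, stood at 4.28 and 2.81 in pericytes and 0.457 and 0.170 in smooth muscle, a log2 difference of 3.30 (SE 0.35, adjusted p = 3.04e-05) and of 2.94 and 3.88 by library. The other ATP-sensitive pair, the neighbours Kcnj11 and Abcc8 on chromosome 7, showed the reverse, but on few UMIs. Abcc8 was at 0.0457 and 0.0458 in pericytes and 0.229 and 0.245 in smooth muscle, a log2 difference of -2.57 (SE 0.74, adjusted p = 0.0453). Kcnj11 read 0.125 and 0.132 in smooth muscle and rested on 13 UMIs in smooth muscle and none in pericytes, at least 4.67-fold lower with 3 UMIs as the floor. The call of Kcnj11 is lost in 1 of the alternatives given at the end. Kcne4, an auxiliary subunit that acts on Kv1 and Kv7 channels, was a gene of both mural types, at 1.37 and 3.13 in pericytes and 0.831 and 1.36 in smooth muscle, where the difference did not pass the test at a log2 value of 0.81 (SE 0.25, adjusted p = 0.0605), and had 10 UMIs in the glial types.

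Vascular smooth muscle had its own Kv set. Kcna5 (Kv1.5), a delayed rectifier of arterial muscle, was at 1.02 and 1.34, with 120 UMIs against 2 in pericytes, a ratio of levels of 64.7 (17.5 to 541) with the 95% interval for counting error only. Kcnab1 was at 2.56 and 2.11, above every neuron class, against 0.252 and 0.260 in pericytes, a log2 difference for pericytes of -3.42 (SE 0.29, adjusted p = 4.62e-06). Kcnk3 was at 1.14 and 1.13 against 0.503 and 0.321 in pericytes (adjusted p = 0.000843). The BK channel and its beta subunit were both higher in smooth muscle: Kcnma1 was at 0.706 and 0.508 against 0.0686 and 0.214 (adjusted p = 0.0183) and Kcnmb1 at 1.12 and 0.810 against 0.0915 and 0.122 (adjusted p = 5.62e-05). Kcnj12 was at 0.526 and 0.351 in pericytes and 0.561 and 0.565 in smooth muscle. Kcnh1 was at 0.252 and 0.260 in pericytes and 0 and 0.0188 in smooth muscle, on 1 UMI in the latter, and Kcnt2 at 0.297 and 0.168 in pericytes. Between these types 2 genes, Kcnj8 and Kcnh1, were higher in pericytes and 9 lower, 20.4% beside 8.70% of all genes called (3.42% higher, 5.28% lower), with a median of 0.34 beside 0.0229. Against the glial types, 13 were higher in mural cells and 12 lower, 46.3% beside 33.0% of all genes called, with a median of -0.16 beside -0.0067.

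Partner proteins without a Kcn symbol were read from a list of 13 genes, of which 9 were tested in each fit. In NF neurons 7 were higher and none lower (23.7% of all genes higher, 16.7% lower), in PEP-A neurons 5 and 1 (18.5% and 10.9%), in TH neurons 4 and 4 (20.8% and 15.8%), and in NP3 neurons 1 and 5 (18.1% and 16.8%). Dpp10, which sits in the Kv4 complex, was highest in TH neurons at 3.03 and 3.06, beside Kcnd3, and read 0.168 and 0.112 in NP3 neurons, while its relative Dpp6 was spread over all classes, at 2.05 and 1.38 in NP3 and 2.05 and 1.27 in TH neurons. Genes whose products cluster Kv1 channels beside the node, Cntnap2 at 2.65 and 2.03 and Epb41l3 at 5.37 and 6.24, were highest in NF neurons, as were Kcna1 and Kcna2. In Schwann cells Cntnap2 stood at 0.312 and 0.241 (myelinating) and 0.367 and 0.304 (non-myelinating). The Kv2 partner Amigo1 was lowest in TH neurons at 0.141 and 0.195 and read 0.894 and 0.885 in NF neurons. Against neurons, the glial and mural types had 7 of the 9 lower and none higher (34.3% of all genes lower there, 33.6% higher), and satellite glia had 6 of 9 lower than the Schwann types (11.6% of all genes lower).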

How the data were processed

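The study measured RNA of single cells from L4-5 dorsal root ganglia in 2 libraries. As deposited, each matrix gives raw UMI counts, 1 value per gene and cell barcode, made with Cell Ranger 5.0.1 after CASAVA 1.8 on build mm10 per the submitters' processing notes. The deposited barcode and feature lists hold cell barcodes, Ensembl identifiers and gene symbols (unit other), per the file headers. Which annotation release, intron setting and strand setting were used is not given in the sources used here.

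A cell was kept from 500 genes upward if mitochondrial UMIs were below 20% (8329 and 11290, from 8818 and 11767 barcodes with 113251556 and 102347251 UMIs). The automatic Scrublet thresholds in scanpy 1.11.5 marked 1 and 0 doublets, and therefore the cells of highest score, 555 and 1020 in number (a share that grows with the number of cells), were left out. Cells were gated by marker scores whose thresholds were set after seeing the data. Neurons needed 10000 UMIs, which left out 3686 neuronal barcodes, and 3599 cells passed no gate. Of 1483 neurons, 1250 fell in 8 classes. Leiden clusters named by the same markers held 59.9% (non-myelinating Schwann) to 100% (vascular smooth muscle) of the gated cells. Among neuron classes this share was lowest in PEP-A, at 70.8%.

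UMIs were summed per class and library, 16 sums of neuron classes and 12 of broad types, so each class counts once per library. Genes passing filterByExpr were fitted in edgeR 4.0.16 (R 4.3.3) by the quasi-likelihood test with TMM factors, with library as a block because both libraries hold every class, leaving 7 and 5 residual degrees of freedom. The library pairs the sums by origin. Differences are between means of fitted log2 values, and p-values were adjusted by Benjamini-Hochberg over all genes tested. On simulated data the neuron fit recovered 100% of genes changed 2-fold in the NP1 comparison, with 15 false among 215 calls over 12291 genes. The broad fit recovered 98% in the comparison of neurons with glial and mural types, with 11 false among 209 calls over 9847 genes. Recovery was not split by level, so it cannot be read for genes with few UMIs, such as Kcnk9, Kcnj9 and Kcnj11. Apart from the changed genes, every simulated class had the same mean profile, with the same spread for all genes and no library effect. Only genes above a minimum level were changed, in a single class, so these rates do not carry over to the real comparisons. The other comparisons were not simulated. Alternatives were Leiden classes, stricter gates, kept doublets, a 10% mitochondrial limit, no filter, no block, a fold of 1.5 and each library alone. Others were the edgeR fit with relative log expression factors in place of TMM, and the Wald test of DESeq2 1.42.0. A setting with neurons of at least 20000 UMIs was added after seeing the data.

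The genes, the subfamilies, the partner list and the markers were chosen with earlier results of these data known. Named genes are every one at 0.1 UMIs per 10000 in both libraries in a class and, per comparison, up to 5 called in each direction with the largest difference, the same sign in both libraries and that level on the higher side, plus called partner genes. Of the 62 genes that met the first condition, 4 are not reported here; they stay in the fits, the sums and the counts. Where a side had no UMI, a fold was taken against 3 UMIs. Intervals and such floors cover counting error only. Promoter windows are from RefSeq on GRCm38.p6.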

Additional observations from a re-analysis of the deposited data

How the results depend on the processing

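The number of potassium channel genes called stayed within 1.5 times its value in all 150 pairs of the 15 comparisons and 10 alternatives. Without the replicate block, that is without pairing the sums by library, 44 genes in place of 46 were called in NP1 neurons, 36 in place of 40 in NP3, 41 in place of 44 in NF, 26 in place of 32 between NP3 and NP2, and 40 in place of 43 between neurons and the other types. No count could be given without a library, since 1 library leaves no residual degrees of freedom.

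Among 143 differences of 56 genes, none changed sign in 1286 tested alternatives, and the call was lost in 8 of these. The differences were named as called ones with a shared sign, and most alternatives reuse the same counts, so a kept sign was likely beforehand. With stricter gates 141 kept their call and 1 lost it, and the rest had no test. Without replicate 1, 56 of the 143 moved by at least 1 SD between the libraries, and without replicate 2, 47 did, with no test possible and the sign fixed by how the genes were named. This SD is itself set by the same libraries, so these counts do not measure how strongly a difference depends on a library. Kcnmb1 in NF neurons lost its call with Leiden classes (-0.41), the DESeq2 Wald test (-0.90), no replicate block (-0.70) and the 10% mitochondrial limit (-0.85). With Leiden classes, Kcnc2 and Kcnk12 in PEP-A neurons (-0.69 and -0.70) and Kcnj11 between pericytes and smooth muscle lost theirs, and with stricter gates Kcnj8 in neurons (-3.15) did. The causes were not tested. Depth limits the non-myelinating Schwann, pericyte and smooth muscle types, where 1 UMI is 0.0153 to 0.0608 per 10000, and the TRPM8 class with its 52 cells.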

Other observations

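Endothelial cells, fibroblasts and macrophages entered no comparison. Endothelial cells had the lowest sum of these 3 types and the 13 classes of the report, at 3.59 and 4.29 UMIs per 10000. Kcnn2 (SK2) was at 0.340 and 0.370 there, against 0.122 and 0.0942 in neurons, and Kcnq1, a Kv7 gene under 0.02 in every neuron class, at 0.113 and 0.112. Fibroblasts had Kcnk2 (TREK1) at 1.49 and 1.23, beside 1.31 and 1.00 in TRPM8 neurons, and Kcnt2 at 0.172 and 0.178, in a sum of 6.54 and 6.23. Macrophages had the THIK1 channel gene Kcnk13 at 0.267 and 0.256, beside 0.245 and 0.276 in NP1 neurons, and Kcnk6 (TWIK2) at 0.158 and 0.101, which had 0.005 or less in all 13 classes of the report. These values were not tested.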
